A study of Mus musculus with 2 samples.

Results

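Complement genes, 8 in number, were followed in single cells of the developing mouse lacrimal gland: C1qa, C1qb, C1qc, C1s1, C1ra, C3, C4b and Serping1, 8 of the 27775 features listed in the files. They were taken by symbol, and each symbol had 1 identifier. The tissue came from mice of the outbred CD1 strain at postnatal day 4 (P4) and at embryonic day 16 (E16). At each stage glands were pooled, digested with Liberase TM and DNaseI, and made into 1 droplet library, so no animal can be told apart within a pool and no test across samples was possible. The labels name no treatment, no genetic change and no sorting of cells.

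Complement is a cascade of proteins that tag microbes, dying cells and debris for removal. In its classical branch the recognition molecule C1q, built from the C1qa, C1qb and C1qc chains, binds a surface and carries the paired proteases C1r and C1s, which cut C4 and C2 so that C3 can be cleaved and attached. The C1 inhibitor, encoded by Serping1, removes the active proteases from the complex. Tissue macrophages are a well known source of C1q, while fibroblasts are known to make C1r, C1s and C1 inhibitor.

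In P4 the genes split between the cell classes. C1q transcripts were in macrophage-like cells, C1s1, C1ra and Serping1 transcripts were in mesenchyme-like cells, and C3 and C4b were at or next to 0 everywhere. Over all mesenchyme-like cells C1s1, C1ra and Serping1 were higher in P4 than in E16, by 4.72 to 8.48 times, although different clusters held most of these cells at each stage.

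Barcodes needed 200 detected genes to be used, and 406 cells with 1975814 UMIs (unique molecular identifiers, each counting 1 captured transcript) passed in P4 and 259 cells with 1711606 UMIs in E16. The median cell had 3767 UMIs in P4, with a range of 715 to 64020, and 5802 in E16, with a range of 852 to 31749. The libraries shared 0 barcodes. Cells were grouped by expression without any complement gene, and each group was named from marker genes that include none of the 8. Mesenchyme-like cells numbered 177 in P4 and 98 in E16, and macrophage-like cells numbered 62 in P4 and 8 in E16, which is 15.3% and 3.09% of the cells. Different clusters held most of both classes at the 2 stages, and those clusters are named beside the values. Levels are UMIs per 1000000 UMIs of the class (CPM), and they are compared within a gene only. Intervals are 95% intervals for counting error alone.

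The marker genes that gave the classes their names are summed here as a description. Their high sums in those classes follow from the naming and are no separate check. All 14 macrophage markers had UMIs in the macrophage-like cells of both libraries, summing to 14017 CPM in P4 and 7534 CPM in E16. In mesenchyme-like cells the same list summed to 69.0 CPM in P4 and 45.4 CPM in E16. All 13 mesenchyme markers had UMIs in mesenchyme-like cells, at 47938 CPM in P4 and 19228 CPM in E16. That list summed to 708 CPM in the macrophage-like cells of P4, with Twist1 and Twist2 at 0, and to 1537 CPM in those of E16, with Pdgfra, Twist2, Prrx1 and Dpt at 0.

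The C1q genes lie side by side on chromosome 4 (GRCm38, 136895917 to 136898803 for C1qa, 136880129 to 136886187 for C1qb and 136889804 to 136893065 for C1qc, all on the minus strand), within 18.7 kb. C1ra (chromosome 6, 124512405 to 124523443, plus strand) and C1s1 (124530345 to 124542359, minus strand) are neighbours 6.90 kb apart. Serping1 is on chromosome 2 (84765387 to 84775444), and C3 and C4b are on chromosome 17 (57203970 to 57228136 and 34728380 to 34743882), all 3 on the minus strand. These are whole protein-coding genes in the GENCODE M21 annotation. RefSeq promoter windows (GRCm38.p6) were given for 5 of the 8. The upstream parts of C1qb and C1qc are shown because both genes were read out in the same cells, with that of C1s1 as a stromal counterpart. Capitals mark GAGGAA or its reverse complement, a core sequence bound by ETS factors such as PU.1, searched on both strands.
C1qb, chr4:136886201-136886450, minus strand: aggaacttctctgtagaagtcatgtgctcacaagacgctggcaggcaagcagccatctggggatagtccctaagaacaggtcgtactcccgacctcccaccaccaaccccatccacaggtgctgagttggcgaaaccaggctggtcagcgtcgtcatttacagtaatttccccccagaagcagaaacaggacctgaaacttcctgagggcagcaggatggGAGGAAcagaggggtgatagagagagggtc
C1qc, chr4:136893066-136893164, minus strand: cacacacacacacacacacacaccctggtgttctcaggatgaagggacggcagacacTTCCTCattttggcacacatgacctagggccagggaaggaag
C1s1, chr6:124542360-124542609, minus strand: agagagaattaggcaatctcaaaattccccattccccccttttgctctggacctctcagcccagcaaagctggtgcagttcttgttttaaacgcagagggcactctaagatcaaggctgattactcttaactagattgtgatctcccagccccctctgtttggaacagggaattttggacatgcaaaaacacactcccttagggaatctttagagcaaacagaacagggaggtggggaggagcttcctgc
The 250 bases of C1qb and the 99 bases of C1qc each held 1 match, and the 250 bases of C1s1 held 0. Such a match is common: 23.3% of all 32851 windows held one in 250 bases and 9.91% in 99 bases. The motif TTCNNNGAA, bound by STAT factors, had 0 matches in all 3 stretches, against 7.02% of windows of 250 bases. These are letter matches only, and binding was not measured.

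The recognition molecule was read out by macrophage-like cells. In the 62 macrophage-like cells of P4, C1qa had 751 UMIs, or 4058 CPM (3773 to 4359). C1qb had 796 UMIs, or 4301 CPM, and C1qc had 1004 UMIs, or 5425 CPM. Each was found in 55 of the 62 cells (88.7%, 78.1 to 95.3%), and every one of these 55 cells had all 3. In mesenchyme-like cells of P4, which should lack the genes, C1qa had a UMI in 6 of 177 cells (3.39%), although their median depth of 4396 UMIs exceeded the 2932.5 UMIs of the macrophage-like cells.

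The macrophage-like cells of E16 were few, so their values stand beside those of P4 without a ratio. C1qa had 18 UMIs in those 8 cells, or 542 CPM (321 to 857), against the 4058 CPM in P4. C1qb had 42 UMIs, or 1266 CPM, and C1qc had 32 UMIs, or 964 CPM. Some C1q was detected in 5 of the 8 cells, and all 3 chains in 3 of them. All 3 levels were below those of P4, beyond the counting intervals, but 7 of the 8 E16 cells belonged to a cluster that held 15 of the 62 P4 cells.

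**Figure D1:**
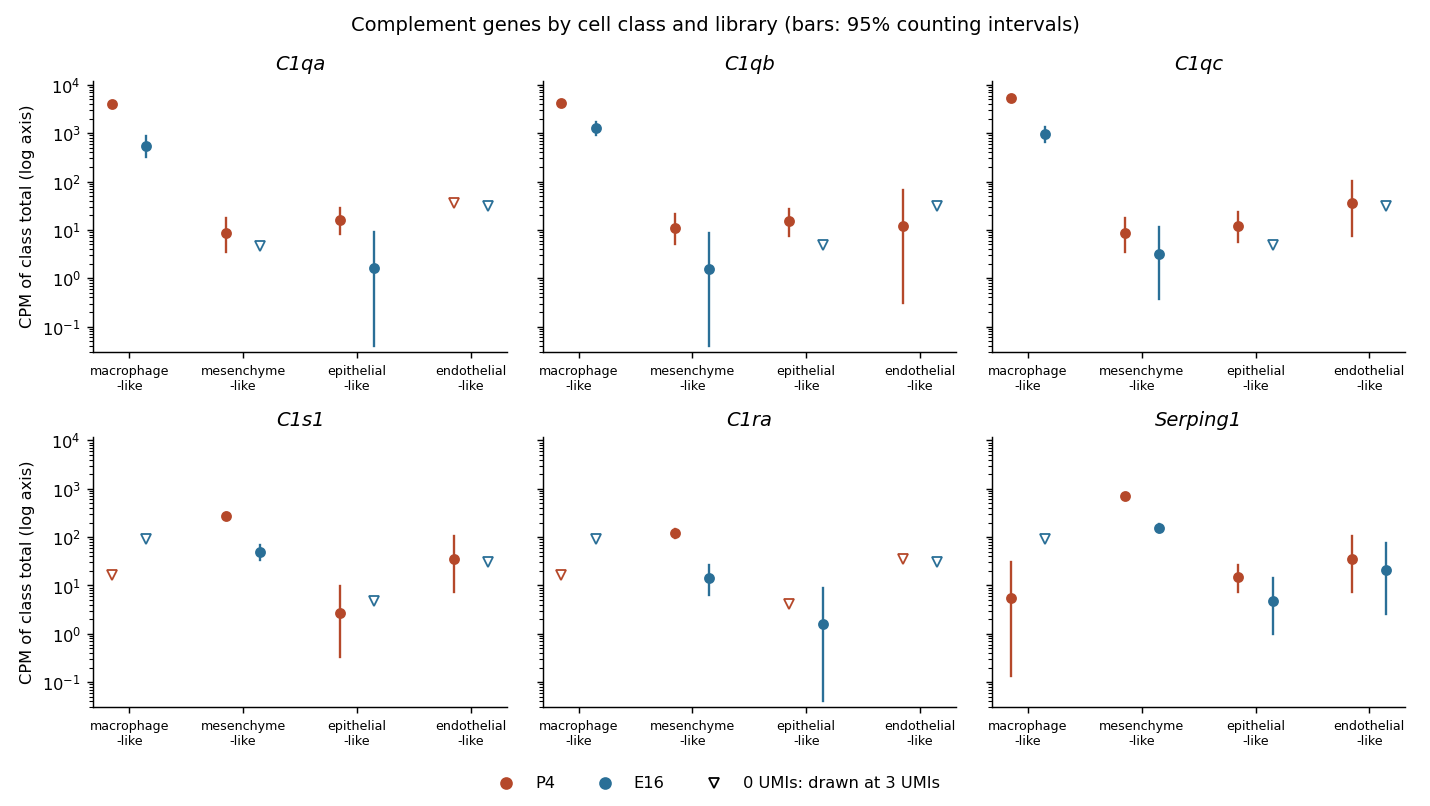
CPM of 6 complement genes (log axis) in 4 cell classes, P4 left of E16, with 95% counting intervals; triangles mark 0 UMIs and are drawn at the level of 3 UMIs. Among these 4 classes the C1q genes are highest in macrophage-like cells, at 4058 to 5425 CPM in P4, and C1s1, C1ra and Serping1 in mesenchyme-like cells, at 276, 119 and 724 CPM in P4.

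Against all other P4 cells, C1qa was 363 times higher in macrophage-like cells (234 to 598), C1qb 335 times (222 to 531) and C1qc 486 times (313 to 799). These sizes depend on which cells carry the name. With each library clustered alone, 16 of the 62 cells were left in an unnamed cluster, 9 of them with 349 C1q UMIs, and the ratios of the other 46 cells over the rest of P4 were 87.5 for C1qa (71.1 to 109), 59.1 for C1qb (49.5 to 70.8) and 79.1 for C1qc (66.5 to 94.6). Of the 6315 genes with at least 30 UMIs in P4, 881 (14%) were at least 2-fold higher in this class. For each chain the macrophage-like level stood first, and the next classes could not be ordered: C1qa was at 16.3 CPM in epithelial-like cells (8.42 to 28.5) and 8.62 CPM in mesenchyme-like cells (3.47 to 17.8), and it had 0 UMIs in the 22 endothelial-like and 18 T or innate lymphoid-like cells.

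The macrophage-like class held 2 clusters that differed in C1q. In the cluster led by Pf4, Lyz2, Cd209f and Folr2 (cluster 15), all 47 P4 cells had all 3 chains. A cell there carried 15 to 88 C1q UMIs with a median of 44, and C1q made up 16479.5 CPM (15811 to 17169). In the cluster led by Lyz2, Cd74 and Ctss (cluster 6), 8 of the 15 P4 cells had C1q, and the level was 5689 CPM (5022 to 6420). The positive cells of cluster 6 had 9 to 49 C1q UMIs each, while the other 7 had 0, and no cell lay in between. Even those 8 cells alone, at 9248 CPM (8164 to 10436), were below cluster 15. In E16 the single cell of cluster 15 had 26 C1q UMIs, while 4 of the 7 cells of cluster 6 had 66 between them, or 2308 CPM (1785 to 2936).

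**Figure D2:**
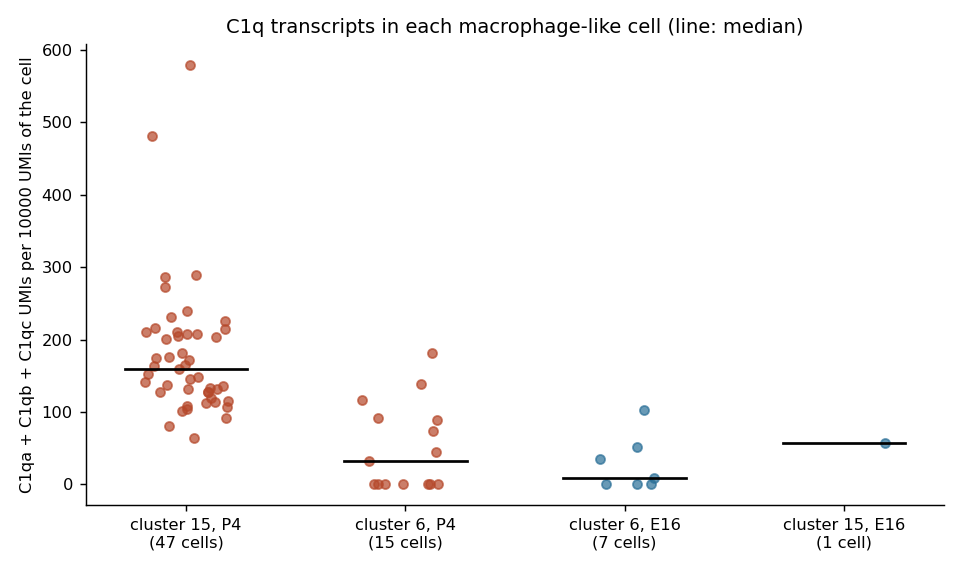
Summed C1qa, C1qb and C1qc UMIs per 10000 UMIs of each macrophage-like cell, by cluster and library, with the median as a line. Cells of cluster 15 in P4 lie between 63.7 and 579 with a median of 159, and 7 of the 15 P4 cells of cluster 6 lie at 0.

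The 7 macrophage-like P4 cells without C1q were looked at after their values were seen. They had 350 UMIs of Cd74, the invariant chain of antigen presentation, at 19673 CPM, against 598 CPM in the 55 cells with C1q. These UMIs lay in 6 of the 7 cells and in 25 of the 55. H2-Aa, a chain of the antigen-presenting molecule MHC class II, had 155 UMIs in 2 of the 7 cells, at 8712 CPM, and 5 UMIs in 1 of the 55, at 29.9 CPM. Ccr2, a chemokine receptor of monocytes, was found in 4 of the 7 cells, at 337 CPM, and in 5 of the 55, at 65.8 CPM. Lyz2, which encodes lysozyme, was at 17425 CPM in the 7 cells, where 4 had it, and at 4866 CPM in the 55, which all had it. Pf4, Folr2, Mrc1 and Ms4a7, genes of tissue macrophages, had 0 UMIs in the 7 cells and 1055, 314, 121 and 207 UMIs in the 55. Csf1r and Adgre1, general macrophage genes, each had only 3 UMIs in the 7 cells, at 169 CPM. In the cells with C1q they were at 759 CPM and 526 CPM. Cd14, another marker used to name the class, went the other way. It was at 1574 CPM in the 7 cells, where 4 had it, and at 909 CPM in the 55, where 47 had it. Ctss was also higher in the 7 cells, at 1686 CPM against 1202 CPM.

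The proportions of the 3 chains were set side by side. Cluster 15 held 2288 of the 2551 C1q UMIs of the P4 class, so their shares were bound to be alike. In P4 macrophage-like cells C1qa was 29.4% of C1q UMIs, C1qb 31.2% and C1qc 39.4%. In cluster 15 of P4 the shares were 29.7%, 30.4% and 39.9%, and in cluster 6 of P4 they were 27.4%, 38.0% and 34.6%. The share of C1qb had an interval of 32.1 to 44.2% in cluster 6 and of 28.5 to 32.4% in cluster 15, which overlap narrowly. In the 8 macrophage-like cells of E16, C1qa was 19.6% of 92 UMIs (12.0 to 29.1%), C1qb 45.7% (35.2 to 56.4%) and C1qc 34.8% (25.1 to 45.4%), and the interval of C1qb does not overlap the 29.4 to 33.0% of P4. Most of these E16 cells, 7 of 8, were in cluster 6. There C1qb was 53.0% of 66 E16 UMIs (40.3 to 65.4%), an interval that overlaps the 32.1 to 44.2% of cluster 6 in P4. A single E16 cell held 30 of the 66.

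Outside the macrophage-like class C1q was scarce. Of the 2614 C1q UMIs of P4, 2551 (97.6%, 96.9 to 98.1%) were in macrophage-like cells, and of the 97 in E16, 92 (94.8%, 88.4 to 98.3%) were. With each library clustered alone the P4 share was 84.2%, and the level outside the class was 224 CPM. The remaining 63 UMIs of P4 lay in 40 of 344 cells, at 35.2 CPM, and 35 of those cells had 1 UMI. In E16 the remaining 5 UMIs lay in 5 of 251 cells. The proportions of the chains outside the class in P4, 31.7%, 36.5% and 31.7%, differed from those inside it by less than their counting intervals, and the origin of these UMIs was not tested.

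A single P4 cell stood out among them, and it was picked for its value. This epithelial-like cell had 9704 UMIs and 19 C1q UMIs, of which 7 were C1qa, 7 C1qb and 5 C1qc. It also had UMIs of 5 of the 14 macrophage markers (Cd68, Fcgr3, Cx3cr1, Aif1 and Pf4), whereas the other 97 epithelial-like cells had a median of 0 and at most 2. Scrublet did not call it a doublet. Without it, C1q in the other epithelial-like cells of P4 was 13 UMIs, or 17.9 CPM (9.52 to 30.6).

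The proteases that C1q carries were read out in another class. C1s1, encoding the C1s protease, had 224 UMIs in mesenchyme-like cells of P4, or 276 CPM (241 to 315), and 31 UMIs in those of E16, or 48.5 CPM (33.0 to 68.9). The ratio of P4 over E16 was 5.68 (3.89 to 8.57). C1ra, encoding the C1r protease that activates C1s, had 97 UMIs in P4, or 119 CPM (96.9 to 146), and 9 UMIs in E16, or 14.1 CPM (6.44 to 26.8), a ratio of 8.48 (4.29 to 19.1). Both intervals lay above 1 at both ends.

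The inhibitor of these proteases followed the same direction. Serping1 had 588 UMIs in mesenchyme-like cells of P4, or 724 CPM (667 to 785), and 98 UMIs in those of E16, or 153 CPM (125 to 187). Its ratio of P4 over E16 was 4.72 (3.81 to 5.91). In the same comparison 396 of 5711 genes with at least 30 UMIs (6.93%) reached a ratio of 2 or more, and the median log2 ratio of all 5711 was -0.18. The other 5 genes had too few UMIs in mesenchyme-like cells to be measured there.

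Most of the class was in different clusters at the 2 stages, so the genes were also compared inside clusters. Clusters 3, 11 and 13 held 79, 46 and 41 of the P4 cells, and clusters 2 and 1 held 57 and 23 of the E16 cells. In cluster 2, C1s1 was at 302 CPM in 7 P4 cells and at 62.0 CPM in 57 E16 cells, a ratio of 4.87 (2.26 to 10.1). In cluster 3, led by Kera, Dcn and Lum, it was at 386 CPM in 79 P4 cells and at 70.1 CPM in 11 E16 cells, a ratio of 5.51 (1.84 to 27.1). In cluster 11, led by Mfap5, Clec3b, Dcn and Ly6a, it had 69 UMIs in 46 P4 cells and 0 in 5 E16 cells. With that 0 set to 3 UMIs over the cluster, the ratio was 1.90, with a lower limit of 1.503. In cluster 1, C1s1 had 7 UMIs in 4 P4 cells, or 344 CPM, and 6 UMIs in 23 E16 cells, or 28.9 CPM, a ratio of 11.9 (3.43 to 42.9). C1s1 was thus higher in P4 inside clusters 1, 2, 3 and 11. Cluster 13 gave no stage comparison for it, with 24 UMIs in 41 P4 cells and 0 in 2 E16 cells.

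The stage ratio of Serping1 varied between clusters. Its ratio was 2.20 in cluster 2 (1.06 to 4.23), with 279 CPM in P4 and 127 CPM in E16. It was 1.73 in cluster 3 (0.906 to 3.70), with 404 CPM in P4 and 234 CPM in E16. In cluster 11 the level was 843 CPM in P4 and 742 CPM in E16, a ratio of 1.14 (0.694 to 1.98). The intervals in clusters 3 and 11 include 1. In cluster 1 it was at 541 CPM in 4 P4 cells and 111 CPM in 23 E16 cells, a ratio of 4.88 (2.15 to 10.4), from 11 and 23 UMIs. In cluster 13 it was at 1172 CPM in 41 P4 cells and 296 CPM in 2 E16 cells, a ratio of 3.97 (1.34 to 19.4), from 215 and 3 UMIs. In clusters 2, 3 and 11 the interval ends under the 4.72 of the whole class, while in clusters 1 and 13 it includes 4.72. For C1ra the ratio was 7.07 in cluster 2 (1.96 to 24.6) and 2.08 in cluster 3 (0.526 to 18.1), from 7 and 2 UMIs in E16. In cluster 11 it had 42 UMIs in 46 P4 cells and 0 in 5 E16 cells, a ratio of 1.16 when the 0 is set to 3 UMIs, with a lower limit of 0.899, so no stage difference was measurable there.

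Cells with a UMI moved the same way. C1s1 was detected in 106 of 177 mesenchyme-like cells of P4 (59.9%) and 25 of 98 of E16 (25.5%). C1ra was detected in 68 cells of P4 (38.4%) and 9 of E16 (9.18%), and Serping1 in 143 cells of P4 (80.8%) and 54 of E16 (55.1%). The median depth was lower in the P4 cells, at 4396 UMIs, than in the E16 cells, at 6111. With every cell thinned to 1342 UMIs, which left out 41 cells of P4 and 15 of E16 over all classes, the shares for C1s1 were 28% in P4 and 6.25% in E16. For C1ra they were 14.9% in P4 and 1.04% in E16, and for Serping1 48.6% in P4 and 17.7% in E16.

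The 62 macrophage-like cells of P4 held 0 UMIs of C1s1, 0 of C1ra and 1 of Serping1. A count of 0 has an interval that ends at 19.9 CPM there. Against all other P4 cells, mesenchyme-like cells had 35.7 times more C1s1 (18.5 to 79.1) and 40.1 times more Serping1 (26.0 to 65.4), and 1394 of the 6315 genes (22.1%) were at least 2-fold higher in this class. For C1ra the other cells held only 1 UMI, which gives a ratio of 139 (24.4 to 5549). Thus 96.1% of the C1s1 UMIs, 99.0% of the C1ra UMIs and 96.6% of the Serping1 UMIs of P4 were in mesenchyme-like cells.

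In E16 the shares were 93.9% for C1s1, 75% for C1ra and 89.9% for Serping1. The 16 smooth muscle-like cells of E16 held 2 UMIs of C1s1, 2 of C1ra and 6 of Serping1. Serping1 was at 77.7 CPM there (28.5 to 169) and at 153 CPM in E16 mesenchyme-like cells (125 to 187), so these levels could not be ordered. In epithelial-like cells Serping1 had 11 UMIs in P4, or 14.9 CPM (7.45 to 26.7), and 3 in E16, or 4.79 CPM (0.987 to 14.0).

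Cells were also counted by how many of the 3 stromal genes they had. Whether the genes shared cells more often than their separate shares of cells would give was not tested. In P4, 41 of 177 mesenchyme-like cells (23.2%) had UMIs of all 3, 68 had 2 of them, 58 had 1 and 10 (5.65%) had none. In E16, 3 of 98 cells (3.06%) had all 3, 19 had 2, 41 had 1 and 35 (35.7%) had none. Counts per cell were low for the proteases, with at most 5 UMIs of C1s1 and 4 of C1ra in a P4 cell. Serping1 reached 46 UMIs in 1 cell of P4, and the 10 cells with the most held 31.8% of its UMIs there.

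**Figure D3:**
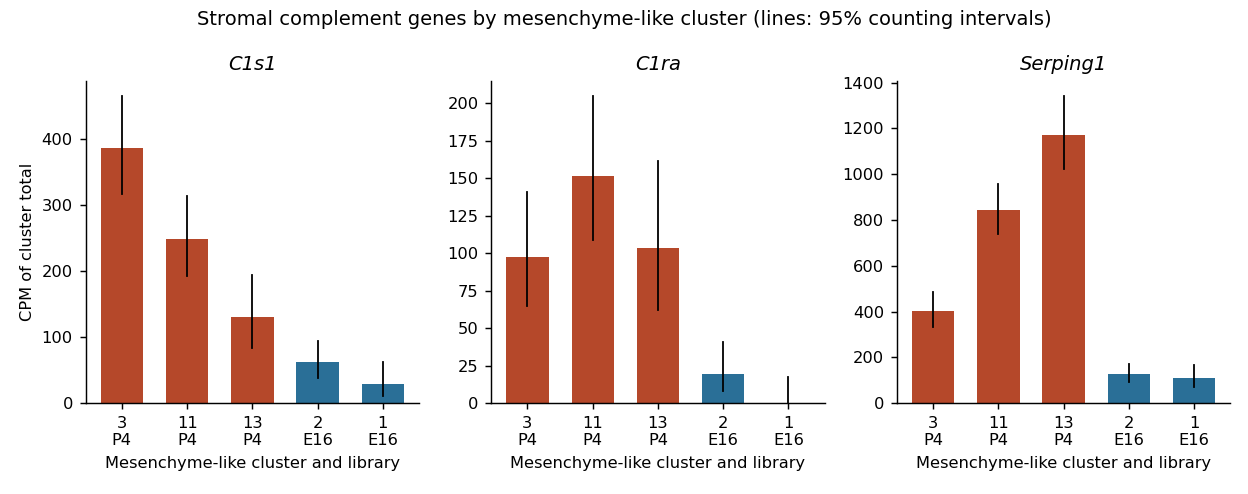
CPM of C1s1, C1ra and Serping1 in the mesenchyme-like clusters that hold most cells of P4 (3, 11 and 13) and of E16 (2 and 1), with 95% counting intervals as lines; C1ra had 0 UMIs in cluster 1 of E16. C1s1 is highest in cluster 3 at 386 CPM, and Serping1 in cluster 13 at 1172 CPM.

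Inside the P4 stroma C1s1 and Serping1 ran in opposite orders. C1s1 was at 386 CPM in cluster 3 (318 to 465), 249 CPM in cluster 11 (193 to 315) and 131 CPM in cluster 13 (83.8 to 195). Serping1 was at 404 CPM in cluster 3 (333 to 484), 843 CPM in cluster 11 (739 to 958) and 1172 CPM in cluster 13 (1021 to 1340). Serping1 had UMIs in 49 of 79 cells of cluster 3, in 46 of 46 of cluster 11 and in 40 of 41 of cluster 13. Single cells held 36 of the 234 UMIs of cluster 11 and 46 of the 215 of cluster 13, and without them the levels were 726 and 956 CPM. C1ra was at 97.4, 151 and 104 CPM in clusters 3, 11 and 13, with overlapping intervals.

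Clustering the 177 P4 cells again by themselves gave 6 sub-clusters with the same contrast. The sub-cluster with the most Pi16, at 2070 CPM of that marker of adventitial fibroblasts, had 10 C1s1 UMIs in 24 cells, or 96.3 CPM (46.2 to 177). The sub-cluster with the most Col15a1, a basement membrane collagen, had 55 C1s1 UMIs in 31 cells, or 458 CPM (345 to 596). The ratio of the Pi16-high over the Col15a1-high sub-cluster was 0.210 for C1s1 (0.0955 to 0.416). For Serping1 the levels were 1136 CPM in the Pi16-high and 442 CPM in the Col15a1-high sub-cluster, a ratio of 2.57 (1.85 to 3.63). A single Pi16-high cell held 46 of the 118 Serping1 UMIs. Without the cell with the most UMIs in each sub-cluster, an alternative chosen after seeing the data, the levels were 740.0 CPM in the Pi16-high and 389 CPM in the Col15a1-high one, a ratio of 1.90 (1.29 to 2.83). C1ra was at 96.3 and 91.6 CPM in them, a ratio of 1.05 (0.400 to 2.73). A coarser sub-clustering kept the directions of C1s1 and Serping1, with a log2 ratio of -1.18 for C1s1 in place of -2.25.

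C3 and C4b were at the floor. C3, the central protein of all branches, had 0 UMIs in the 406 cells of P4 and 0 in the 259 cells of E16. The intervals end at 1.87 CPM in P4 and 2.16 CPM in E16. In mesenchyme-like cells, 0 of 177 in P4 allows a share of cells with a UMI of up to 2.06%, and 0 of 98 in E16 up to 3.69%. C4b, encoding C4, which C1s cuts, had 1 UMI in P4, in a mesenchyme-like cell, and 0 in E16. The near-identical C4a was not among the listed features. At this depth C3 and C4b transcripts were not detectable beyond 1 UMI.

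Of 44 further complement genes listed by role, 43 were in the files. Mesenchyme-like cells had at least 30 UMIs of 10 of them, of which 4 had a P4 level of 2-fold or more above E16 and 1 of 2-fold or more below it. Over all 5711 measured genes, 6.93% were at least 2-fold higher and 13.6% at least 2-fold lower. The median log2 ratio was 0.43 over the 10 and -0.18 over all. The copies of the C1 proteases had the largest ratios of the 10. C1rb had 51 UMIs in P4, or 62.8 CPM, and 2 in E16, or 3.13 CPM, a ratio of 20.1 (5.28 to 170). C1s2 had 158 UMIs in P4, or 195 CPM, and 17 in E16, or 26.6 CPM, a ratio of 7.31 (4.42 to 12.9). They resemble C1ra and C1s1 closely, so reads could be split between them or lost. Summed with its copy, neither gene changed in direction.

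C2, the other protein that C1s cuts, was at 124 CPM in mesenchyme-like cells of P4 and 51.7 CPM in those of E16, a ratio of 2.41 (1.61 to 3.68). Inside cluster 3 it was at 104 CPM in P4 (70.4 to 149) and 93.4 CPM in E16 (25.5 to 239). C2 was at 169 CPM in P4 and 175 CPM in E16 in cluster 11. The levels were 23.2 and 59.1 CPM in cluster 2, 120 and 197 CPM in cluster 13, and 49.1 and 9.63 CPM in cluster 1. Intervals overlapped in each cluster, so no stage difference of C2 was measurable inside them. The surface regulator Cd55 was at 83.8 CPM in P4 and 23.5 CPM in E16, a ratio of 3.57 (2.02 to 6.72). Inside cluster 11 it was at 72.1 CPM in P4 and 87.3 CPM in 5 E16 cells. Cd55 had 0 UMIs in the 7 P4 cells of cluster 2, against 28.2 CPM in 57 E16 cells. It also had 0 in the 4 P4 cells of cluster 1, against 14.4 CPM in 23 E16 cells. Clusters 3 and 13 had 13 and 35 UMIs in P4 and 0 in their 11 and 2 E16 cells. Intervals overlapped in each cluster, so no stage difference of Cd55 was measurable inside them. Within the P4 stroma Cd55 was at 191 CPM in cluster 13 (133 to 265), above cluster 3 at 45.2 CPM (24.1 to 77.3) and cluster 11 at 72.1 CPM (44.0 to 111), whose intervals overlap. C1s2 was at 275 CPM in cluster 3 (218 to 343), 177 CPM in cluster 11 (131 to 233) and 70.9 CPM in cluster 13 (37.7 to 121).

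Clu, which encodes clusterin and restrains the terminal complex, was lower in P4 stroma, at 28.3 CPM in P4 and 84.6 CPM in E16, a ratio of 0.335 (0.196 to 0.555). A single E16 cell of cluster 11 held 11 of its 54 UMIs. In epithelial-like cells Clu went the other way, with 28 UMIs in P4, or 38.0 CPM, and 4 in E16, or 6.38 CPM, a ratio of 5.96 (2.08 to 23.4). There 7.09% of 5007 genes were at least 2-fold higher and 27.4% at least 2-fold lower. Epithelial-like cells lay in different clusters at the 2 stages, with clusters 0, 4, 9 and 16 holding 35, 3, 33 and 27 of the P4 cells and 48, 31, 8 and 0 of the E16 cells. In cluster 9, which held 22 of the 28 UMIs of P4 and 3 of the 4 of E16, Clu was at 64 CPM in P4 and 69.2 CPM in E16, a ratio of 0.925 (0.278 to 4.83). The class ratio was thus not seen inside that cluster, and the difference between the classes was not tested. The remaining stromal genes, Vtn (1.63), Cr1l (1.11), Colec12 (1.07), C1qbp (1.01) and Cd59a (0.656), had ratios of P4 over E16 within 2-fold. Vtn, encoding vitronectin, also had 9 UMIs in the 9 smooth muscle-like cells of P4, at 297 CPM, and 7 in the 16 of E16, at 90.6 CPM.

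**Figure D4:**
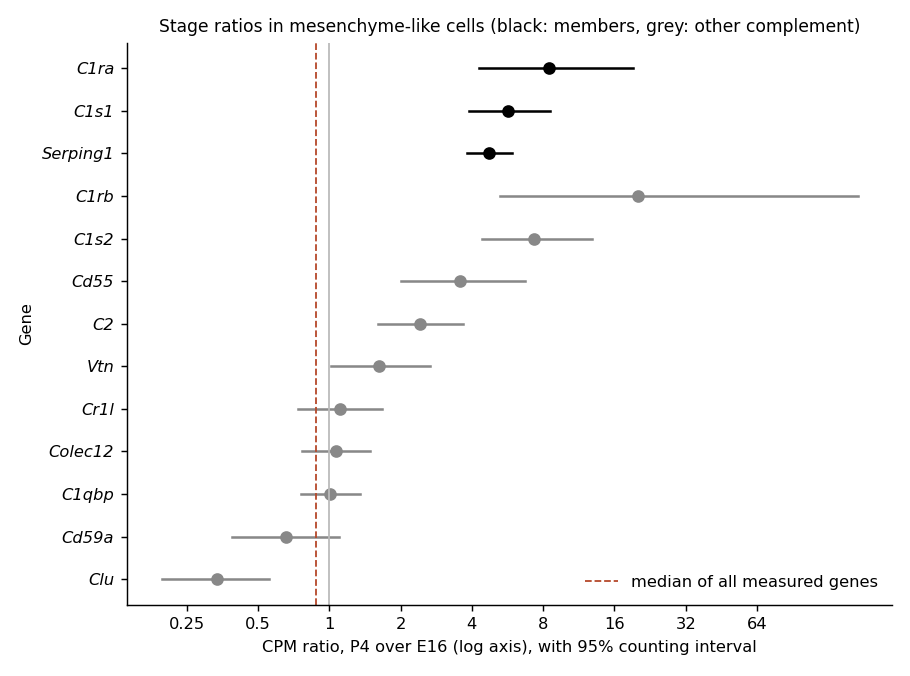
Ratio of CPM in mesenchyme-like cells, P4 over E16 (log axis), with 95% counting intervals, for C1s1, C1ra and Serping1 (black) and the 10 other complement genes with at least 30 UMIs (grey); the dashed line is the median of all 5711 measured genes. The black points lie at 4.72 to 8.48, and Clu lies lowest at 0.335.

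Macrophage-like cells added a different set. Properdin, Cfp, which stabilizes the alternative pathway convertase, had 129 UMIs in P4, or 697 CPM, and 17 in E16, or 512 CPM. The receptors for the released C5a and C3a fragments were in the same cells. C5ar1 had 144 UMIs in P4, or 778 CPM, and 26 in E16, or 784 CPM. C3ar1 had 54 UMIs in P4, or 292 CPM, and 9 in E16, or 271 CPM. As for C1q, the clusters behind these class levels differ, since cluster 15 held 47 of the 62 P4 cells and cluster 6 held 7 of the 8 E16 cells. Inside cluster 6, C5ar1 was at 173 CPM in 15 P4 cells (74.7 to 341) and 839 CPM in 7 E16 cells (538 to 1249), intervals that do not overlap. C3ar1 was at 86.5 CPM there in P4 (23.6 to 222) and 280 CPM in E16 (121 to 551), and Cfp at 368 CPM in P4 and 559 CPM in E16 (320 to 909), with overlapping intervals. The ratios to other P4 cells were 416 for Cfp (139 to 2044), 199 for C5ar1 (94.2 to 504) and 131 for C3ar1 (48.2 to 497).

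Ficolin-A, Fcna, a recognition molecule of the lectin branch, had 121 UMIs in P4 macrophage-like cells and 3 in those of E16. All 121 were in 37 of the 47 cells of cluster 15, at 872 CPM (723 to 1041), and the 15 P4 cells of cluster 6 had 0, which allows up to 79.8 CPM. The scavenger receptor Colec12 showed the same split in P4, with 28 UMIs in cluster 15 and 0 in cluster 6. Cfp was in both P4 clusters, at 807 CPM in cluster 15 (664 to 971) and 368 CPM in cluster 6 (214 to 589).

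**Figure D5:**
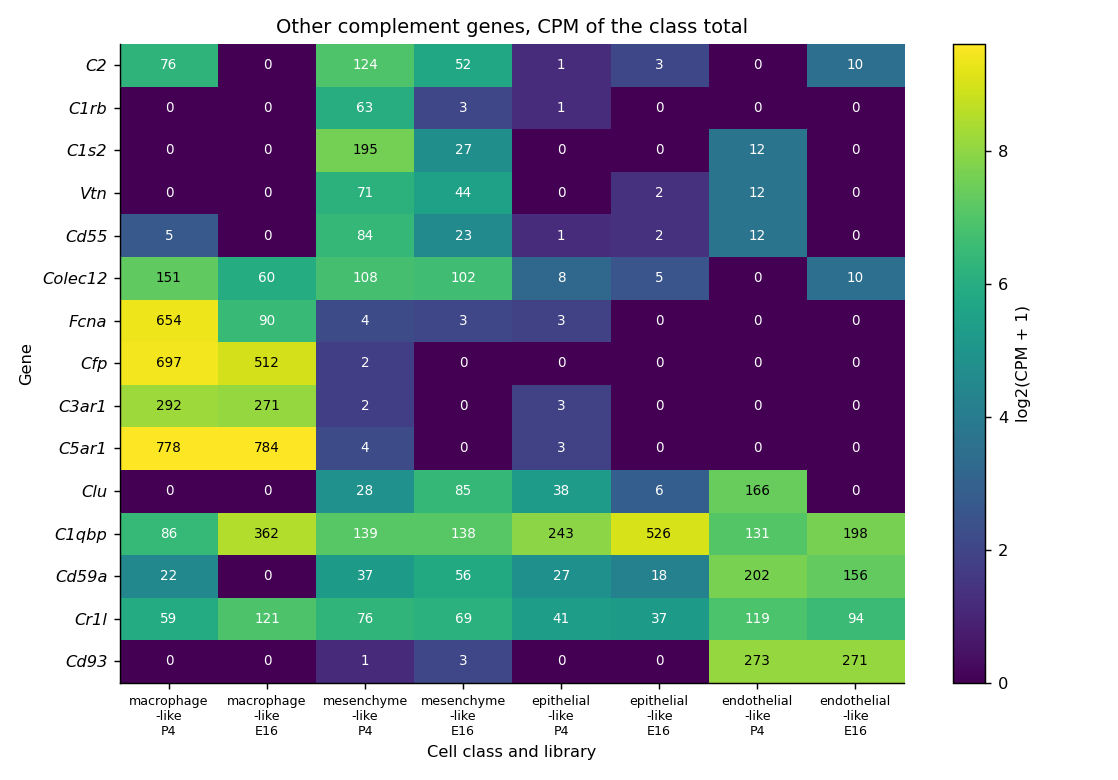
CPM of 15 further complement genes in 4 cell classes, each with P4 left of E16; colour is log2(CPM + 1) and the number is the CPM. Of these macrophage-like, mesenchyme-like, epithelial-like and endothelial-like columns, Fcna, Cfp, C3ar1 and C5ar1 are highest in macrophage-like cells, C1rb, C1s2, C2, Vtn and Cd55 in mesenchyme-like cells of P4, and Cd93 in endothelial-like cells.

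Endothelial-like cells held Cd93, a surface protein once described as a C1q receptor, with 23 of its 24 UMIs in P4, at 273 CPM, and 26 of its 30 in E16, at 271 CPM. C1qbp, a mostly mitochondrial protein that binds C1q in vitro, was at 243 CPM in epithelial-like cells of P4 and 526 CPM in those of E16, a ratio of 0.462 (0.383 to 0.555). In that comparison 27.4% of genes were at least 2-fold lower and the median log2 ratio was -0.53. Inside epithelial-like clusters C1qbp was at 379 CPM in P4 and 399 CPM in E16 in cluster 0, a ratio of 0.949 (0.589 to 1.5). It was at 386 CPM in 3 P4 cells and 593 CPM in 31 E16 cells of cluster 4, a ratio of 0.651 (0.332 to 1.16), and at 346 CPM in P4 and 323 CPM in E16 in cluster 9, a ratio of 1.07 (0.615 to 2.02). In cluster 4 a single P4 cell held 10 of the 12 UMIs of P4, and without it the P4 level was 116 CPM. Cluster 16, with P4 cells only, was at 66.6 CPM. All 3 intervals include 1. The terminal pathway was nearly empty: 4 of its 7 genes had 0 UMIs in both libraries, and none had 30 in a class. The alternative pathway protease Cfd, the regulator Cfi, the macrophage receptor Vsig4 and the lectin protease Masp1 each had 0 UMIs.

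Finally, the genes most like each one were ranked by the Pearson correlation of log2(CPM + 20) over the 11 sums of class and library with at least 10 cells. All points came from the same 2 libraries, and the macrophage-like class gave 1 of them, so these are descriptions. For summed C1q the nearest were Pf4 (0.996), the chemokine Ccl4 (0.982) and Lyz2 (0.981). For C1s1 they were C1s2 (0.969), the thrombospondin Thbs3 (0.95) and the proteoglycan Ogn (0.95). For C1ra they were Pamr1 (0.971), the metalloprotease Mmp23 (0.971) and the hyaluronan-binding Tnfaip6 (0.964), while its copy C1rb, below the minimum of 100 UMIs for this ranking, was at 0.983. For Serping1 they were Tnfsf12 (0.981), the chemerin gene Rarres2 (0.966) and the protease Ctsk (0.966). Between the stromal genes themselves the values were 0.899 for C1s1 with C1ra, 0.934 for C1s1 with Serping1 and 0.924 for C1ra with Serping1.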

How the data were processed

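Single-cell RNA was measured in 1 P4 and 1 E16 library. The files deposited by the authors hold raw UMI counts, whole numbers for every gene in every barcode. Cell Ranger and the mm10 build are named, per the submitters' processing notes; its version and settings are not stated there. Reads that fit several genes are usually dropped in such counting, which can lower near-identical copies. The 13 mitochondrial features had 0 UMIs. Symbols shared by several identifiers were kept apart.

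Barcodes with at least 200 genes were kept (406 of 687 in P4 and 259 of 437 in E16). With scanpy 1.11.5, counts were scaled to 10000 per cell and logged, and 2000 variable genes without the complement genes, scaled and clipped at 10, gave 20 components, 15 neighbours and Leiden clusters at resolution 1. A cluster took the class whose markers had the largest mean gain in share of cells with a UMI over other cells. It stayed unnamed with fewer than 3 markers in 20% of its cells, or with more markers of another class among its 10 leading genes. A cluster of low depth for its library with no leading marker of its own would also stay unnamed. This score replaced standardized expression after the clusters had been seen. P4 mesenchyme-like cells were clustered again on 10 components. Scrublet called 1 doublet in P4 and 2 in E16, which were kept.

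UMIs were summed by class and library. Ratios have exact conditional 95% intervals, CPM exact Poisson and shares exact Clopper-Pearson intervals. For a ratio a count of 0 was set to 3. With 1 library per stage there is no p-value, and called means at least 2-fold among genes with at least 30 UMIs, in classes of at least 20 cells per library. Named were the 8 genes in classes of at least 10 cells, list genes with at least 30 UMIs in a class, and the 3 most alike genes with at least 100 UMIs. The ratio was tested on simulated data. A list gene is not reported here. Members and lists were chosen with earlier results of these data known.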

Additional observations from a re-analysis of the deposited data

Results flagged for a closer look

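The 281 P4 barcodes with fewer than 200 detected genes, which entered no comparison and whose UMIs were a median of 95.7% haemoglobin, held 20 C1q UMIs in 19 barcodes, or 27.1 CPM (16.6 to 41.9). The 178 such barcodes of E16 held 0, and a count of 0 allows up to 7.05 CPM there. In the P4 cells outside the macrophage-like class the level was 35.2 CPM. Serping1 had 4 UMIs in these barcodes of P4, and C1s1, C1ra, C3 and C4b had 0. Where they came from was not tested.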

How the results depend on the processing

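Of 112 values recomputed under alternatives, 90 stayed within counting error or 1.5 times the count, 22 moved and 0 reversed. Only called ratios could be labelled reversed. Levels, shares, counts and the C1ra ratio between sub-clusters could only stay or move. Some of the 90 could not move at all and say nothing about stability. Leaving out the 20 most abundant genes does not enter the UMI shares or the C1q level outside the macrophage-like class. Leaving out the cell with the most UMIs does not enter the counts of genes higher or lower. C1q in P4 macrophage-like cells, 13784 CPM, was 16487 with each library clustered alone, 16896.5 without the 20 most abundant genes, 14838 as a mean over cells and 16479.5 without the cluster led by Lyz2 and Cd74, an alternative added after seeing the data. The share of C1q UMIs in that class, 97.6%, was 84.2% clustered alone, 98.9% as a mean over cells and 98.2% without the cell with the most UMIs, and the level outside it, 35.2 CPM, was 224 clustered alone and 24.7 without that cell. The share of C1s1, C1ra and Serping1 UMIs of P4 in mesenchyme-like cells, 96.7%, was 97.8% clustered alone. The 4 further complement genes higher in P4 became 2 at a minimum of 100 UMIs; the 1 lower became 0 there and 2 with no filter. All genes higher, 396, became 166 and 960. The C1s1 log2 ratio between sub-clusters, -2.25, was -1.18 at resolution 0.5. The cause was not tested, except that a filter changes how many genes are measured. The log2 stage ratios ranged over 2.49 to 2.65 for C1s1, 2.98 to 3.40 for C1ra and 2.09 to 2.29 for Serping1. No paired analysis was possible because each stage was 1 library. Replicate variation could not be judged, and C3, C4b and E16 macrophage-like values are limited by depth and by 8 cells.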
